A study of Mus musculus with 9 samples.

Results

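Sterol and fatty acid synthesis genes were examined in the colon of wild-type mice kept in a standard or in an enriched environment. The set held 33 genes, found by symbol through their Ensembl identifiers, of 22262 genes with a count in any library. All 33 had counts and all 33 passed the filter on low counts. They comprised 15 enzymes of the sterol pathway, 5 regulators, 1 sterol carrier and 12 enzymes that supply, build, elongate or desaturate fatty acids.

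Messenger RNA was measured from its 3′ end with unique molecular identifiers, so that a count is meant to stand for a molecule and not to grow with transcript length. Of the 9 mice, 4 (WT_SE 1, 2, 3 and 5) lived in a standard environment and 5 (WT_EE 1 to 5) in an enriched one. All were female wild-type C57BL/6N aged 12 months, with no transgene, and gave 1 library each. SE denotes ordinary cages, and EE denotes large cages with running wheels and changing objects, in which mice lived from weaning. Each sample was a whole piece of 2 to 3 cm from the upper colon, with all layers of the wall. The same number in both environments does not mean the same animal. Library totals lay between 295535 and 454043 counts, so that 3 counts, taken as the detection floor, corresponded to 6.61 to 10.2 CPM, the unit used below, in which each count is taken as a share of its library. Of 12 epithelial, 7 goblet cell and 8 smooth muscle marker genes, all had counts in every mouse. The library names of WT_SE mice 1 and 3 carry the ending L3, and those of the other 7 mice L2. The sources do not say what this ending means, and L3 occurs only in WT_SE. Log2 fold changes without these 2 libraries are therefore given below for Lss, Insig1, Srebf1 and Scd1, and in a figure for every gene of the set. Sums over enzymes are given over all 9 libraries only.

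Cells make cholesterol from acetyl-CoA through mevalonate, squalene and lanosterol, and fatty acids from the same acetyl-CoA through malonyl-CoA. Transcription of both pathways is driven by the sterol regulatory element binding proteins, encoded by Srebf1 and Srebf2, which Scap escorts out of the endoplasmic reticulum when sterols are scarce and which Insig1 and Insig2 hold back when sterols are plentiful. Colon epithelium renews constantly and needs membrane lipids, while adipocytes in fat attached to the gut wall make and store fatty acids.

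The set as a whole did not separate the environments. Of the 33 genes, 14 had a positive and 19 a negative log2 fold change of WT_EE over WT_SE, with a median of -0.04 against 0.01 for all 17441 genes tested. One regulator was higher and 1 lower in WT_EE at an unadjusted p under 0.05 by the quasi-likelihood test of edgeR, Srebf1 and Insig1 respectively. That is 1 of 33 in each direction, where 4.31% of all genes tested were higher and 3.34% lower, 7.65% together. After Benjamini-Hochberg adjustment over all genes none of the 33 was called (0.0401% of all genes were), and the smallest adjusted p was 0.277. DESeq2 called none of the 33 after adjustment, but it called 0 of all 17440 genes there too. Before adjustment it called 1 of the 33, beside 374 higher and 269 lower of all genes. No gene of the set had values in 1 environment that all lay above or below those of the other, as 2.58% of all genes tested did (1.38% higher and 1.20% lower in WT_EE). The median size of the log2 fold change, without its sign, was 0.18 for the set, 0.28 for all genes and 0.21 for the 11461 genes in the same range of mean counts.

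**Figure D1:**
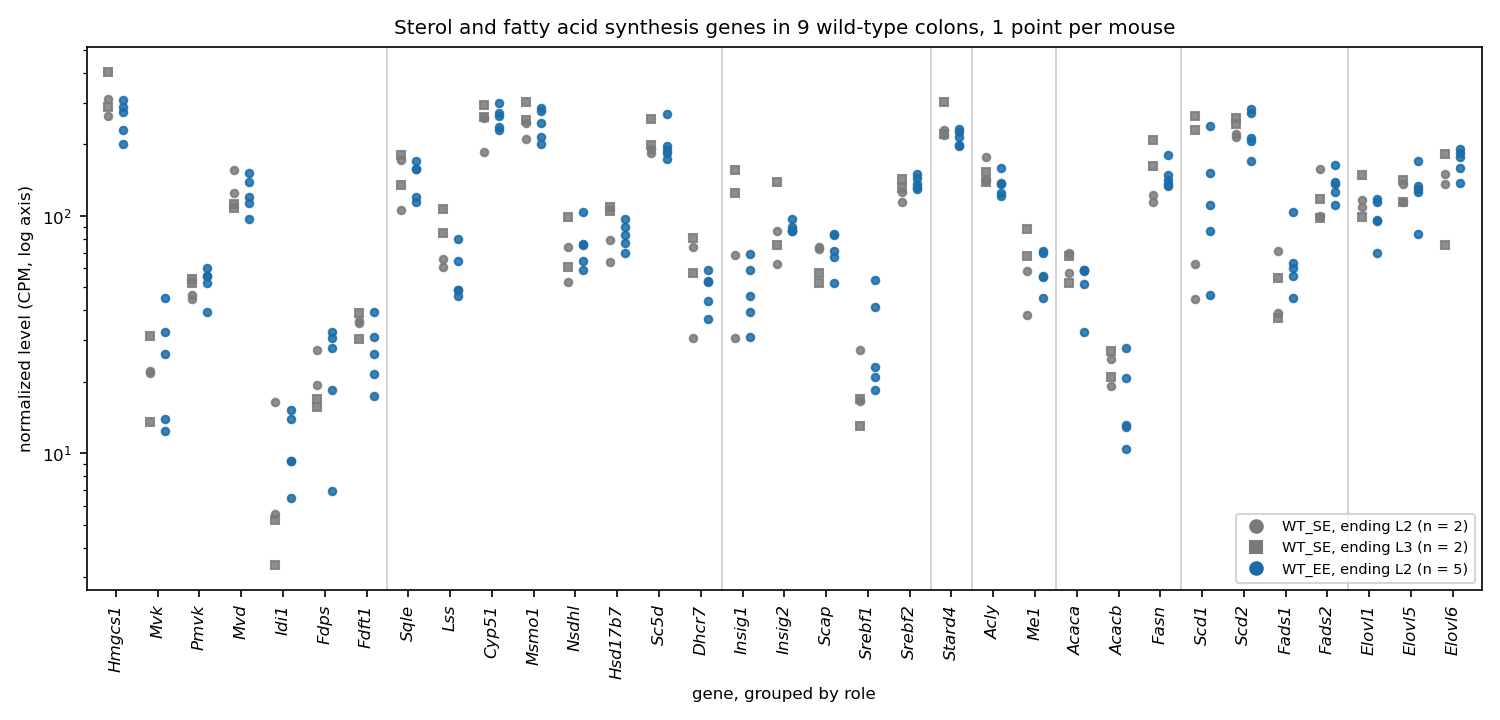
Normalized level of the 33 genes in CPM on a log axis, 1 point per mouse, grouped by role. WT_SE mice are grey (squares for the library-name ending L3) and WT_EE mice blue. The 2 environments overlap for every gene, and Scd1 and Insig1 spread the most between mice.

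The spread between mice limited what could be seen. The coefficient of variation of normalized levels over the 9 mice ranged from 8.16% for Srebf2 to 63.6% for Scd1, with a median of 20.1%, and only Scd1, Insig1, Srebf1 and Idi1 exceeded 50%. For 27 of the 33 genes the 95% interval of the log2 fold change from edgeR over all 9 mice lay wholly between -1 and 1, so that a doubling or halving fell outside it. The other 6 were Mvk, Idi1, Fdps, Insig1, Srebf1 and Acacb, of which all but Insig1 had a mean of 10.2 counts or fewer. The 27 include Scd1, with an interval of -0.96 to 0.36 in spite of its wide spread. Its log2 fold change was 1.18 within the libraries ending in L2, so a doubling of Scd1 is not excluded. Counts of 30 of the genes were above 3 in every mouse, and the exceptions were Idi1, Fdps and Acacb.

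Promoter sequence was a property that the choice of the genes had not used. RefSeq start sites on GRCm38.p6, with 250 bases before and 50 after each, were given for 26 of the 33 genes in 36 windows, and not for Fdft1, Fads1, Scd2, Stard4, Scd1, Fdps and Sqle. The windows were searched on both strands for 4 strings of letters, CCAAT (the box bound by NF-Y, a partner of the sterol regulatory element binding proteins), CACGTG (an E-box), GGGCGG (a GC box, bound by Sp1) and TCACNCCAC (a sterol response element type). CCAAT was found in 22 of 26 genes, or 84.6%, beside 42.5% of the 11129 protein-coding genes tested that had a window. GGGCGG was found in 20 of 26 genes, or 76.9%, beside 66.3%. CACGTG was found in 6 genes, namely Dhcr7, Elovl5, Hsd17b7, Insig1, Sc5d and Scap, or 23.1% beside 11.2%. TCACNCCAC was found in Hmgcs1 only, or 3.85% beside 1.37%. A gene counted as holding a string if any of its windows did, and the number of windows per gene was not matched. The set had 36 windows for 26 genes, and all genes with a window had 32851 for 27025. A match is a string of letters and not a measured binding site, and none of these shares was tested.

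The 250 bases before the start site are shown for 3 genes, 5′ to 3′ on the gene's strand and with every match of the 4 strings in capitals. Insig1 is the gene called lower, Hmgcs1 an early enzyme of sterol synthesis and the gene with the sterol response element type, and Fasn the enzyme that builds the fatty acid chain.
Insig1, chr5:28071162-28071411, + strand: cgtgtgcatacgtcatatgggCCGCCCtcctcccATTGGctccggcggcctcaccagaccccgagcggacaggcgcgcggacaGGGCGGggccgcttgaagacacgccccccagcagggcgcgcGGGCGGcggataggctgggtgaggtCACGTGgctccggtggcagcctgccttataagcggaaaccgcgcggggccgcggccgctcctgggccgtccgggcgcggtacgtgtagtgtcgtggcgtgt
Hmgcs1, chr13:119690101-119690350, + strand: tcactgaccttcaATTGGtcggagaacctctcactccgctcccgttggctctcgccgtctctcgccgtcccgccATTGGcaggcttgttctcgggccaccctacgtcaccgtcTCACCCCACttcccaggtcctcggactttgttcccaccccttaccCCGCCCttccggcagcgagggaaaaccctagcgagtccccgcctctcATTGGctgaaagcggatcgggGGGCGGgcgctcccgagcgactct
Fasn, chr11:120824548-120824797, - strand: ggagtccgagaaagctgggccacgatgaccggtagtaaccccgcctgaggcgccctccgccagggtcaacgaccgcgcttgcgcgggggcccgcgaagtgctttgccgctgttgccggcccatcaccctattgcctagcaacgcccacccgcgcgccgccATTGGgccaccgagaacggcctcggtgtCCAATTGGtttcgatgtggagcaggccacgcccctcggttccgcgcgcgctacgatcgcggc
The Insig1 window holds 1 CCAAT box (as its complement ATTGG), 1 E-box and 3 GC boxes. In Hmgcs1 the sterol response element type TCACCCCAC begins 137 bases before the start site and lies among 3 CCAAT boxes, while the Fasn window holds 3 CCAAT boxes, of which a pair overlaps, and neither of the other strings.

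**Figure D2:**
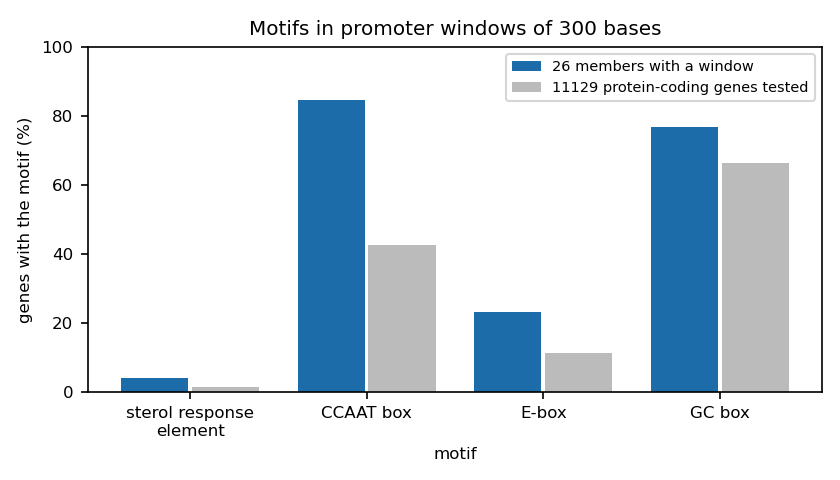
Share of genes in percent whose promoter windows hold each motif, for the 26 genes of the set with a window (blue) and the 11129 protein-coding genes tested (grey). The CCAAT box shows the widest gap, 84.6% against 42.5%.

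The sterol enzymes began with Hmgcs1. This synthase, which makes hydroxymethylglutaryl-CoA, had the most counts of the set, namely 110, 95, 120 and 114 in WT_SE mice 1, 2, 3 and 5 and 93, 83, 105, 100 and 118 in WT_EE mice 1 to 5. Normalized, this was 316 ± 61.9 CPM over the WT_SE mice (SD, n = 4) against 259.7 ± 44.3 CPM over the WT_EE mice (SD, n = 5). The log2 fold change was -0.29 ± 0.15 (SE) with an unadjusted p of 0.058, and 0.175 by the exact permutation test, two-sided. Each WT_EE mouse lay below the mean of the WT_SE mice, but the environments overlapped. WT_SE mouse 3 was the highest at 405 CPM and WT_EE mouse 1 the lowest at 200.3 CPM.

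The enzymes that lead from mevalonate to squalene gave no call. Mvk and Pmvk, the kinases that phosphorylate mevalonate, had log2 fold changes of 0.27 ± 0.37 and 0.09 ± 0.24 (SE). Mvd, which yields isopentenyl diphosphate, was at 125 ± 21.5 CPM in WT_SE and 124 ± 21.0 CPM in WT_EE. Its log2 fold change was 0.00 ± 0.18, with a 95% interval of -0.36 to 0.36. Idi1, which isomerizes isopentenyl diphosphate, had 1 to 7 counts per mouse, and its log2 fold change of 0.44 ± 0.57 rests on values at or near the floor. Fdps, which joins the units into farnesyl diphosphate, changed by 0.29 ± 0.38 and Fdft1, the squalene synthase, by -0.37 ± 0.31 on the log2 scale. Fdft1 lay between 30.4 and 39.1 CPM in WT_SE and between 17.4 and 39.2 CPM in WT_EE, so that the highest of the 9 mice was a WT_EE mouse.

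From squalene to cholesterol, 8 enzymes were measured and none was called, with log2 fold changes from -0.46 for Lss to 0.09 for Nsdhl. Lss, which closes squalene epoxide into lanosterol, was nearest to a call. It had 107, 61.1, 84.3 and 65.4 CPM in WT_SE mice 1, 2, 3 and 5 and 79.7, 48.7, 45.8, 64.8 and 48.5 CPM in WT_EE mice 1 to 5. Most WT_EE mice lay below the WT_SE mice, but WT_EE mice 1 and 4 lay within their range. The log2 fold change was -0.46 ± 0.23 (SE), with an unadjusted p of 0.0569, an adjusted p of 0.667 and an exact permutation p of 0.0873, the smallest of the set. Without the 2 L3 libraries it was -0.12.

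The other enzymes of this stretch were close to 0. Sqle, the squalene epoxidase, changed by -0.04 ± 0.17 (SE) on the log2 scale. Cyp51, which removes a methyl group from lanosterol, had 112, 67, 77 and 95 counts in WT_SE mice 1, 2, 3 and 5 and 107, 76, 108, 97 and 117 in WT_EE mice 1 to 5. Its levels were 249 ± 44.7 CPM in WT_SE and 259.9 ± 28.0 CPM in WT_EE, and the low value of WT_SE mouse 2, 186 CPM, made the wider spread. Msmo1, Nsdhl and Hsd17b7, which take off the further methyl groups, changed by -0.05, 0.09 and -0.09. Sc5d, which sets a ring double bond, changed by -0.04 ± 0.15, and Dhcr7, which makes cholesterol in the final step, by -0.32 ± 0.26. Dhcr7 had 11 counts in WT_SE mouse 2 and 17 to 27 in the other 8 mice.

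Summed over the 15 sterol enzymes, the level was 1733 ± 222 CPM over the WT_SE mice (SD, n = 4) against 1640 ± 113 CPM over the WT_EE mice (SD, n = 5), a difference smaller than the spread between mice. The single sums of WT_SE ran from 1410 CPM in mouse 2 to 1912 CPM in mouse 3, and those of WT_EE from 1481 to 1752 CPM, inside that range. WT_SE mouse 2 was the lowest of the 9 mice for 5 of the 15 enzymes, namely Sqle, Cyp51, Nsdhl, Hsd17b7 and Dhcr7. Stard4, which carries cholesterol between membranes, was at 242 ± 38.7 CPM in WT_SE and 214 ± 16.0 CPM in WT_EE, with a log2 fold change of -0.18 ± 0.14 (SE).

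Both calls of the set fell among the regulators. Insig1, which retains Scap in the endoplasmic reticulum (chromosome 5, 28071363 to 28078662, plus strand, GRCm38), had 60, 11, 37 and 25 counts in WT_SE mice 1, 2, 3 and 5 and 32, 17, 21, 10 and 17 in WT_EE mice 1 to 5. As CPM these were 156, 30.5, 125 and 68.2 in WT_SE and 68.9, 59.1, 45.8, 30.8 and 39.2 in WT_EE. WT_SE mice 1 and 3 stood above all others, WT_SE mouse 2 was the lowest of the 9, and the environments overlapped. The log2 fold change was -0.94 ± 0.29 (SE), a level 1.92-fold lower in WT_EE, with an unadjusted p of 0.00277, an adjusted p of 0.277 and an exact permutation p of 0.135. The high WT_SE mice 1 and 3 are those with the ending L3. Within the 7 libraries ending in L2, the log2 fold change of Insig1 was 0.00 ± 0.33 (SE), with a 2-against-5 split of mice and an unadjusted p of 0.999. With the ending as a covariate it was -0.01 ± 0.33. Without WT_SE mouse 1 alone it was -0.56, with an unadjusted p of 0.0811. The environment and the library-name ending cannot be told apart for the L3 mice.

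Srebf1, which drives fatty acid synthesis genes above all (chromosome 11, 60199089 to 60222581, minus strand, GRCm38), had 5, 6, 5 and 10 counts in WT_SE mice 1, 2, 3 and 5 and 25, 6, 19, 6 and 10 in WT_EE mice 1 to 5. WT_EE mice 1 and 3 were high at 53.8 and 41.4 CPM, while WT_EE mice 2, 4 and 5, at 20.9, 18.5 and 23.1 CPM, lay among the WT_SE mice, which reached 27.3 CPM. The log2 fold change was 0.82 ± 0.38 (SE), with an unadjusted p of 0.0357, an adjusted p of 0.599 and an exact permutation p of 0.183. WT_EE mice 1 and 3 also had the largest library totals, and with the log2 total as a covariate, chosen after the values were seen, the log2 fold change was 0.46 ± 0.41, with an unadjusted p of 0.267. The same 2 mice were the WT_EE mice with high counts of Slc10a2, a bile acid transporter that varies along the gut, at 107 and 117 against 3 to 10 in the other 3 WT_EE mice. In WT_SE these counts were 26, 103, 110 and 16 in mice 1, 2, 3 and 5. With the Slc10a2 level as a covariate, also chosen after the values were seen, the log2 fold change of Srebf1 was 1.03 ± 0.37, with an unadjusted p of 0.00724 and an adjusted p of 0.528. Within the libraries ending in L2 it was 0.59 ± 0.45. Without WT_EE mouse 1 it was 0.54 and without WT_SE mouse 1 it was 0.68, and the call was lost in both. Srebf1 overlaps Rai1 on the other strand, and whether the counting used strand is not given in the sources used here.

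The remaining regulators differed little. Srebf2, which drives the sterol genes above all, was the steadiest gene of the set, at 129 ± 12.3 CPM over the WT_SE mice (SD, n = 4) against 138 ± 8.54 CPM over the WT_EE mice (SD, n = 5). Its log2 fold change was 0.11 ± 0.16 (SE), with a 95% interval of -0.21 to 0.42. Scap changed by 0.18 ± 0.22 and Insig2, the relative of Insig1, by 0.00 ± 0.20. Insig2 lay between 62.7 and 138 CPM in WT_SE but between 86.1 and 97.0 CPM in WT_EE.

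**Figure D3:**
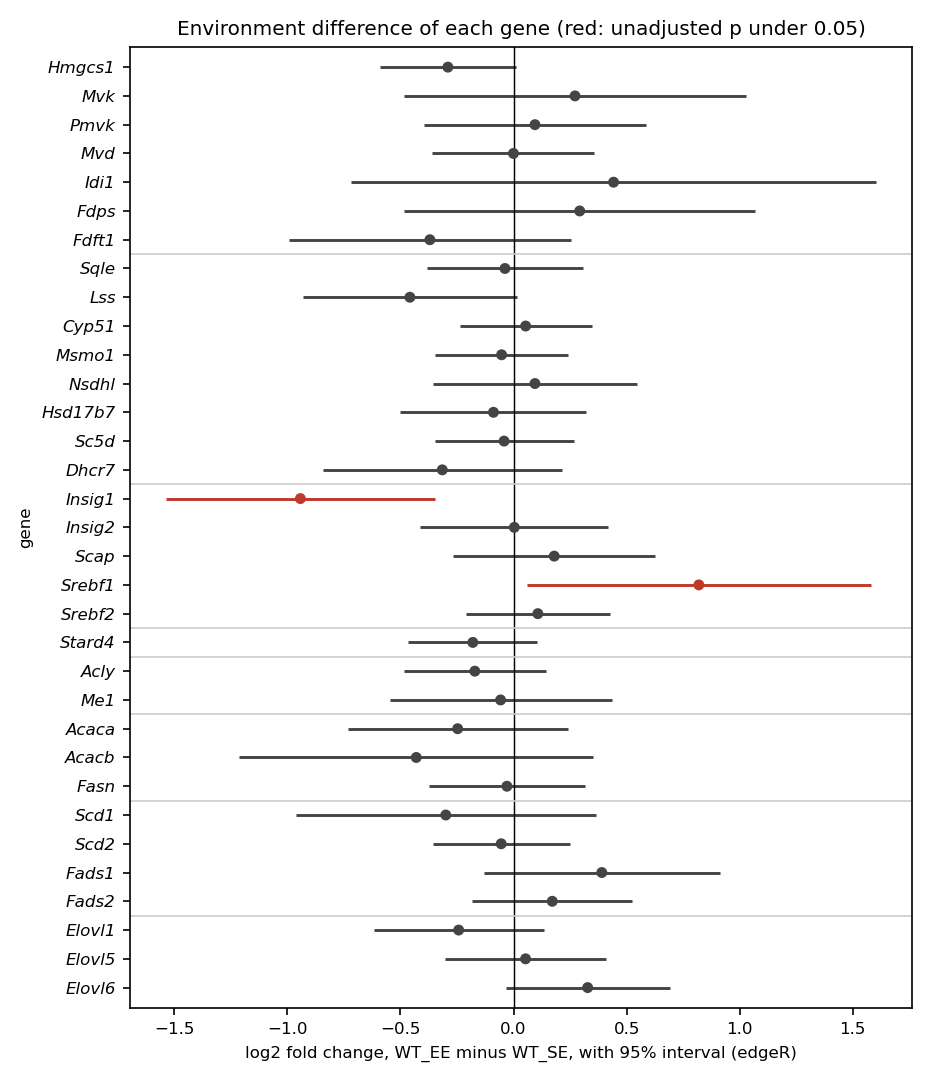
Log2 fold change of WT_EE over WT_SE for each of the 33 genes with its 95% interval from edgeR, ordered by role. Insig1, at -0.94, and Srebf1, at 0.82, in red, are those with an unadjusted p under 0.05, and the other 31 intervals include 0.

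Among the fatty acid enzymes none of 12 was called. Acly, which cleaves citrate to acetyl-CoA, lay between 138 and 177 CPM in WT_SE and between 121 and 159 CPM in WT_EE. It changed by -0.17 ± 0.15 (SE) on the log2 scale, and Me1, the malic enzyme that gives NADPH, by -0.06 ± 0.24. Acaca and Acacb, the acetyl-CoA carboxylases that make malonyl-CoA, changed by -0.25 ± 0.24 and -0.43 ± 0.39 (SE) on the log2 scale, Acacb on 3 to 9 counts per mouse. Fasn, the fatty acid synthase, had 80, 44, 48 and 42 counts in WT_SE mice 1, 2, 3 and 5 and 66, 39, 83, 48 and 58 in WT_EE mice 1 to 5. Its log2 fold change was -0.03 ± 0.17, with a 95% interval of -0.37 to 0.31. Over all 12 enzymes the summed level was 1385 ± 171 CPM over the WT_SE mice (SD, n = 4) against 1365 ± 91.0 CPM over the WT_EE mice (SD, n = 5), a difference smaller than the spread between mice.

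The desaturases behaved unlike one another. Scd1, which puts the first double bond into saturated fatty acids, varied most, with 101, 16, 68 and 23 counts in WT_SE mice 1, 2, 3 and 5 and 40, 69, 51, 49 and 20 in WT_EE mice 1 to 5. As CPM these were 263, 44.4, 229 and 62.7 in WT_SE and 86.1, 239.9, 111, 151 and 46.2 in WT_EE, which is a 5.92-fold range from the lowest to the highest mouse. High and low mice occurred in both environments, and the log2 fold change was -0.30 ± 0.33 (SE), with an unadjusted p of 0.367. Scd2, its neighbour on chromosome 19 with the same reaction, stayed between 170.1 and 281 CPM, at 234 ± 20.2 CPM in WT_SE and 228 ± 46.6 CPM in WT_EE. Fads1 and Fads2, which desaturate polyunsaturated fatty acids, changed by 0.39 ± 0.26 and 0.17 ± 0.17.

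The elongases Elovl1, which acts on very long chains, and Elovl5, on polyunsaturated chains, changed by -0.24 ± 0.19 and 0.05 ± 0.18 (SE) on the log2 scale. Elovl6, which lengthens palmitate, had 29, 49, 54 and 55 counts in WT_SE mice 1, 2, 3 and 5 and 82, 53, 63, 62 and 69 in WT_EE mice 1 to 5. WT_SE mouse 1 was lowest at 75.5 CPM, and the other 8 mice, at 136 to 191 CPM, did not part by environment. The log2 fold change was 0.33 ± 0.18, with an unadjusted p of 0.0754 and an exact permutation p of 0.159.

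Leaving out WT_SE mice 1 and 3 changed Scd1 as it changed Insig1. Within the 7 libraries ending in L2, Scd1 was higher in WT_EE, with a log2 fold change of 1.18 ± 0.38 (SE), an unadjusted p of 0.00422 and an adjusted p of 0.994, from WT_SE mice 2 and 5 at 44.4 and 62.7 CPM. In WT_EE 4 of the 5 mice lay above both, and WT_EE mouse 5, at 46.2 CPM, did not. It was the only gene of the set called there, 1 of 33 higher beside 2.47% of all genes and 0 lower beside 1.50%. With the ending as a covariate in all 9 libraries it was again the only one, at 1.16 ± 0.35 and an adjusted p of 0.696, 1 of 33 higher beside 2.28% and 0 lower beside 1.66%. Of the 33 genes, 22 had a positive log2 fold change within the libraries ending in L2 (median 0.08) and 20 with the ending as a covariate (median 0.06), where 14 had one over all 9 libraries. Both WT_SE mice that remain, 2 and 5, had no count of the adipocyte gene Adipoq, while WT_EE mice 1 to 4 had 7 to 29, and the part of adipocyte RNA in the higher Scd1 was not tested.

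**Figure D4:**
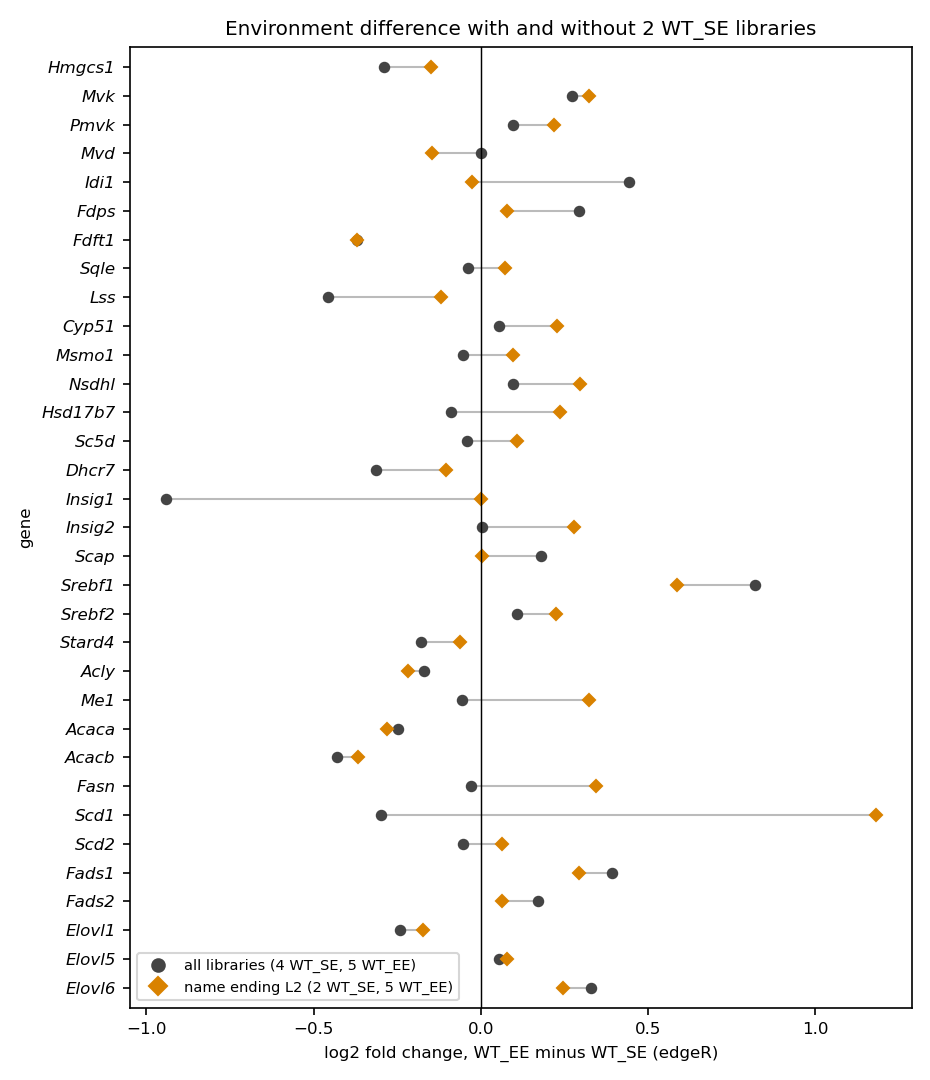
Log2 fold change of WT_EE over WT_SE for each gene in all 9 libraries (dark circles) and in the 7 libraries whose names end in L2 (orange diamonds). Insig1 moves from -0.94 to 0.00 and Scd1 from -0.30 to 1.18, while most other genes move less.

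Adipocyte markers varied between the pieces of colon, and the mice with no Adipoq count had the lowest Scd1 and, narrowly, the lowest Fasn. Of 12 adipocyte marker genes, 6 to 11 had counts in a given mouse, and their summed level ran from 122 to 1289 CPM in WT_SE and from 145 to 724 CPM in WT_EE. Adipoq, which encodes the adipocyte hormone adiponectin, had 70, 0, 15 and 0 counts in WT_SE mice 1, 2, 3 and 5 and 7, 9, 29, 7 and 0 in WT_EE mice 1 to 5. Plin1, a coat protein of fat droplets, had 25, 0, 3 and 1 counts in WT_SE and 1, 2, 7, 1 and 0 in WT_EE, and Cidec, another droplet protein, 24, 3, 3 and 2 in WT_SE and 10, 4, 6, 1 and 3 in WT_EE. The 3 mice with no Adipoq count, WT_SE mice 2 and 5 and WT_EE mouse 5, had the 3 lowest levels of Scd1, at 44.4, 62.7 and 46.2 CPM, and of Fasn, at 122, 115 and 134 CPM. The other 6 mice had 86.1 to 263 CPM of Scd1 and 136 to 208 CPM of Fasn. Such a split without overlap was seen upward for 2 of the 33 genes and for 0.522% of all genes tested, and downward for 0 of the 33 and 0.763% of all genes. It was looked at after the values were seen and was not tested.

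Slopes on the mean log2(CPM + 1) of the adipocyte markers, with the environment kept in the fit, were also chosen after the values were seen. Over all 9 mice, Scd1 rose by 0.62 ± 0.10 (SE) on the log2 scale per unit of that mean, with an adjusted p of 0.000575 by edgeR, and was the only gene of the set to pass adjustment, beside 0.0459% of all genes. That share is made up of Scd1, Lpl, Thrsp and the markers Adipoq, Car3, Cfd, Fabp4 and Plin1, which enter the mean themselves. At an unadjusted p under 0.05, Scd1, Insig1 (0.38 ± 0.10, p of 0.000534) and Fasn (0.19 ± 0.06, p of 0.00405) rose, 3 of 33 beside 1.20% of all genes, and 0 of 33 fell beside 1.11%. The slope of Scd1 was 0.85 without WT_SE mouse 1 (adjusted p of 0.00367), 0.76 without WT_SE mice 1 and 2, which lay farthest from the median (adjusted p of 0.00808), and 0.63 within the libraries ending in L2 (unadjusted p of 0.00193, not past adjustment). In the same fits, in that order, Fasn had unadjusted p-values of 0.0807, 0.0958 and 0.256, and Insig1 of 0.0203, 0.0967 and 0.438. Fads1 fell in each, with slopes of -0.32, -0.37 and -0.33. Its unadjusted p-values were 0.0256, 0.00988 and 0.0445, none past adjustment, where 1.23%, 1.63% and 1.26% of all genes fell. Over all 9 mice the slope of Fads1 was -0.15 ± 0.10 (SE), with an unadjusted p of 0.156 by edgeR. The marker mean lay near 2 in the 3 mice with no Adipoq count and from 3.61 to 5.61 in the other 6, so that the mice formed separate clusters and a slope over all 9 includes the step between them. Within the 6 mice that had Adipoq counts, Scd1 changed by 0.13 ± 0.19 and Fasn by 0.21 ± 0.15 per unit, with unadjusted p-values of 0.487 and 0.166, and Insig1 by 0.12 ± 0.20. Fads1 did not fall in these 6 mice, with a slope of 0.20 ± 0.23 and an unadjusted p of 0.403. Elovl6 was the only gene of the set with an unadjusted p under 0.05 there, 1 of 33 lower beside 1.06% of all genes and 0 higher beside 1.59%, with a slope of -0.54 ± 0.16, an unadjusted p of 0.00252 and an adjusted p of 0.999. WT_SE mouse 1 had the highest marker mean and the lowest Elovl6, at 75.5 CPM. Over the 8 mice without it, the slope of Elovl6 was 0.05 ± 0.10, with an unadjusted p of 0.573. In a whole piece of tissue, more cells of a type and more RNA per cell cannot be told apart, and the part of attached fat in the levels of Scd1 and Fasn was not tested.

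**Figure D5:**
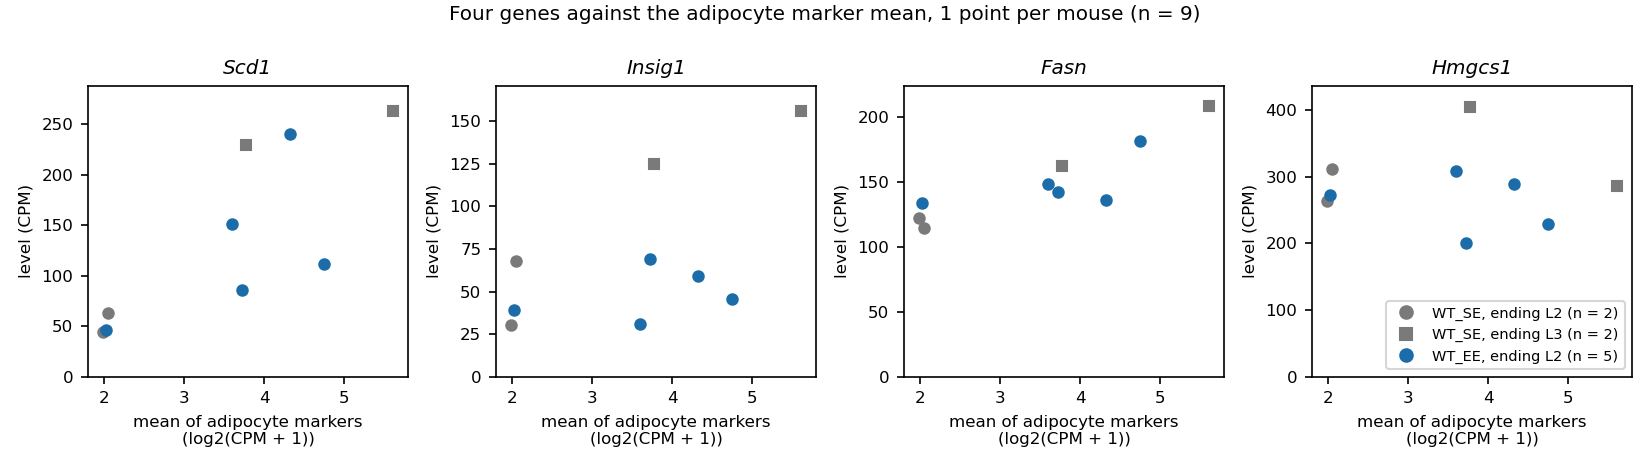
Level in CPM of Scd1, Insig1, Fasn and Hmgcs1 against the mean log2(CPM + 1) of the adipocyte markers, 1 point per mouse, with symbols as in the plot of all levels. The 3 mice near a marker mean of 2 have no Adipoq count and the lowest Scd1, at 44.4 to 62.7 CPM, while Hmgcs1 shows no such step.

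Library totals also moved with some genes of the set. Per unit of log2 total, with the environment kept in the fit, 6 genes fell, namely Hmgcs1, Msmo1, Sc5d, Scd1, Scd2 and Elovl6, and 3 rose, namely Mvk, Fdps and Srebf1, at an unadjusted p under 0.05. Of all genes tested 6.28% fell and 5.11% rose, and none of the 9 passed adjustment. Counts of the genes with the most counts grew less than in proportion to the totals. For genes with a mean of 60 to 120 counts, which include Hmgcs1, Cyp51, Msmo1, Sc5d, Stard4 and Scd2, the slope of log summed counts on log total was 0.696, while it was 1.29 for a mean of 2 to 10 counts. What this does to the levels, spreads and folds of Hmgcs1 and the other genes named with it was not tested. The epithelial marker mean, from 8.11 to 8.51 on the log2 scale, was also lowest in the library with the second largest total. Per unit of that mean, with the environment kept in the fit, Hmgcs1, Cyp51, Msmo1, Dhcr7, Scd1 and Scd2 rose at an unadjusted p under 0.05. Mvk fell. Of all genes tested 6.10% rose and 4.25% fell. Scd1 had the smallest unadjusted p of the set, 0.000493 by edgeR, with an adjusted p of 0.0632. The part of epithelial content in the slopes on the library total was not tested.

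Pathway genes outside the set gave the same picture. Of 22 further sterol genes (enzymes, proteases and ligases that act on the sterol sensors, and exporters), 21 were tested, 8 had a positive log2 fold change, none was called higher and 1 was called lower, beside 4.31% and 3.34% of all genes tested. That gene was Soat2, which esterifies cholesterol, with 4 counts in WT_SE mouse 2, 1 in WT_SE mouse 5 and 0 in the other 7 mice, so that no fold is given. Of 28 further fatty acid genes 23 were tested, 11 had a positive log2 fold change and none was called in either direction, beside 7.65% of all genes tested. Rnf139, a ubiquitin ligase of the endoplasmic reticulum chosen here after its values were seen, was the only one of the 44 genes tested in both lists without overlap between environments, as 2.58% of all genes were, at 58.3 to 84.5 CPM in WT_SE and 41.7 to 54.5 CPM in WT_EE, on 12 to 31 counts per mouse. Its log2 fold change was -0.45 ± 0.23 (SE), with an unadjusted p of 0.056 and an exact permutation p of 0.00794, the smallest possible. Groups without overlap give a permutation p at or next to that minimum, so it adds nothing to the lack of overlap that picked the gene.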

How the data were processed

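Counts of molecules per gene were deposited by the authors as whole numbers without normalization, 1 file per mouse, from 3′ libraries with unique molecular identifiers. Per the submitters' processing notes, reads were handled with fastp 0.20.0, STAR 2.7.0f, featureCounts 1.6.0 of Subread, and UMI-tools on GRCm38.p6. The study's methods give another STAR version. A gene absent from a file was taken as 0. Symbols and positions came from GENCODE mouse release M21, promoter windows from RefSeq on GRCm38.p6.

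Genes reaching 4 CPM in 1 or more libraries were tested in R 4.3.3 with edgeR 4.0.16 (TMM, quasi-likelihood F test, environment as the only term) and adjusted by Benjamini-Hochberg over all 17441 genes. The standard error is the absolute log2 fold change divided by the square root of F. CPM were TMM-normalized. Exact permutation tests, two-sided, used all 126 splits of 4 and 5 mice, and 0.00794 is the smallest p they can give. Floors cover counting error only. Permutation p-values rest on the values of these mice alone. Intervals and p-values of edgeR rest on the spread between these mice, with the spread of each gene drawn toward that of other genes tested. For genes that vary more than most, such as Scd1 and Insig1, they can therefore be too narrow or too small. Steps were tested on simulated data. DESeq2 1.42.0 and limma 3.58.1 were alternatives. The genes of the set, the related lists and the markers were chosen with earlier results of these data known. Named with values were genes with an unadjusted p under 0.05, any without overlap, the most counted of each role, and Soat2 of the related lists; the others named were chosen after their values were seen. Figures were drawn with python 3.11.15 and matplotlib 3.10.9.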

Additional observations from a re-analysis of the deposited data

Results flagged for a closer look

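Values that stood far from the rest of their environment by Dixon's gap test were found in 4 of the 66 groups looked at (33 genes in 2 environments), where chance gives about 3.3, or 1 in 20. Idi1, the isopentenyl diphosphate isomerase, was at 16.4 CPM in WT_SE mouse 5, on 6 counts, and between 3.37 and 5.55 CPM in the other 3 WT_SE mice, which is under the floor of 3 counts. Sc5d, the sterol desaturase, was at 268 CPM in WT_EE mouse 2, the library with the smallest total, and between 173 and 196 CPM in the other 4 WT_EE mice. Stard4, the cholesterol carrier, was at 300.1 CPM in WT_SE mouse 3, whose name ends in L3, and between 219 and 229 CPM in the other 3 WT_SE mice. Acaca, the acetyl-CoA carboxylase, was at 32.3 CPM in WT_EE mouse 5, on 14 counts, and between 51.7 and 59.1 CPM in the other 4 WT_EE mice.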

How the results depend on the processing

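Over 24 alternatives the number of genes of the set with an unadjusted p under 0.05 moved from 2 to 4 with no filter on low counts, with the adipocyte marker mean as a covariate and with the mouse number as a replicate block, and to 1 with filterByExpr, with the DESeq2 Wald test, with the ending of the library name as covariate, within the libraries ending in L2 and at a threshold of 0.01. Of all genes, 751 were higher and 583 lower of 17441 in the main fit, and 885 and 692 of 22262 with no filter. With the adipocyte covariate they were 780 and 514 of 17441, and with the block 694 and 476 of 17441. With filterByExpr they were 451 and 353 of 8590, and with DESeq2 374 and 269 of 17440. Leaving out 1 mouse at a time gave 0 (without WT_SE mouse 1) to 5 (without WT_SE mouse 2, all lower: Hmgcs1, Lss, Dhcr7, Insig1 and Scd1) and 4 without WT_SE mouse 5. Without WT_SE mouse 2, 954 of all 17217 genes tested were higher and 619 lower. Without WT_SE mouse 1 these were 719 and 483 of 17258, and without WT_SE mouse 5 they were 866 and 715 of 17303. Genes passing adjustment went from 0 to 1, Insig1 in each case, with no filter (adjusted p 0.0144) and without WT_SE mouse 2 (adjusted p 0.0255), so that leaving out 1 mouse gave 0 to 1. Over all genes, those passing adjustment rose from 7 to 143 with no filter and to 35 without WT_SE mouse 2.

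The reversed values were Insig1 within the libraries ending in L2, at 0.00052, and Scd1 with the ending as a covariate and within those libraries, at 1.16 and 1.18. Insig1 was called in 21 of 24 alternatives and Srebf1 in 12 of the 23 that tested it, since filterByExpr removed it. Of 787 single values under an alternative, 746 kept their side of the threshold, among them 76 that changed sign with neither value past it.

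Mice with the same number share only that number: their deviations from the group means correlated by -0.02 to 0.08. With the number as a block the 4 calls were Hmgcs1, Lss, Insig1 and Srebf1, 1 higher and 3 lower, beside 694 higher and 476 lower of all 17441 genes. Of all genes 70 passed adjustment with that block, against 7 in the main fit. The Slc10a2 level and the library total as covariates were chosen after seeing the data and gave 3 and 2 calls. Of all 17441 genes, 603 were higher and 558 lower with the Slc10a2 level, and 853 and 864 with the library total. With totals of 295535 to 454043 counts, precision was limited: the 95% interval of Fdps, for example, ran from -0.48 to 1.07.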
